A study of Rattus norvegicus with 12 samples.

Results

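The microRNAs (miRNAs) of the hippocampus were described in 4 adult male Sprague Dawley rats of the vehicle condition, numbered 9, 10, 19 and 20. These animals were between P70 and P80 of age, received a vehicle injection by the intraperitoneal route and were killed 3 h later, with no genetic modification and no other agent. The tissue is given as right hippocampus in the sample labels and as dorsal hippocampus in the paper. The design states 8 rats per group, but the series holds 4 vehicle libraries, and all of them were used. Libraries of ethanol rats were not used. A miRNA was kept when its estimated count was 10 or more in all 4 libraries, which retained 382 of 753 listed mature miRNAs. These 382 miRNAs held at least 99.97% of the counts of each rat. Levels are given as CPM, the count of a miRNA divided by the total of its library and multiplied by 1000000.

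Mature miRNAs are short RNAs cut from a hairpin precursor, and either the arm on the 5′ side (5p) or the arm on the 3′ side (3p) can be loaded into an Argonaute protein. The loaded strand finds messenger RNAs mainly through its seed, the bases 2 to 8 counted from its 5′ end, and miRNAs with the same seed are grouped as a family because they can bind many of the same sites. In the hippocampus, miRNAs such as miR-124, miR-9 and miR-128 are known from neurons, miR-219 and miR-338 from oligodendrocytes, and miR-204 and miR-211 from the choroid plexus that lies next to it.

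The sequences below are those of the families that held the largest shares of the counts, from RefSeq (GRCr8), with the seed in capitals. Each family repeats 1 seed while the bases after it differ. By mean share over miRNAs with a sequence entry, the miR-26 and miR-181 families came first and were followed by miR-30 and let-7.
miR-26a-5p: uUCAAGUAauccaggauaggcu
miR-26b-5p: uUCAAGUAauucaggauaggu
miR-181a-5p: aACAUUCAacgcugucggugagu
miR-181c-5p: aACAUUCAaccugucggugagu
miR-181b-5p: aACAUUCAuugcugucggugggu
miR-181d-5p: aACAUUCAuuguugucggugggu
miR-30a-5p: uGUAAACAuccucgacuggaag
miR-30c-5p: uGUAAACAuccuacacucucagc
miR-30e-5p: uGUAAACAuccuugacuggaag
miR-384-5p: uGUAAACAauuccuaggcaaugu
let-7a-5p: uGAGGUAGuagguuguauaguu
let-7g-5p: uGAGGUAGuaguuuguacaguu
let-7i-5p: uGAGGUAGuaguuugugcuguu
let-7c-5p: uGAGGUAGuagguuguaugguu
miR-98-5p: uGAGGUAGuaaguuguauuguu
let-7e-5p: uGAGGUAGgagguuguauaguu
let-7f-5p: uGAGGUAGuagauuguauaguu
let-7b-5p: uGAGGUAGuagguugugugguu
let-7d-5p: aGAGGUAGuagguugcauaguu

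The next sequences belong to smaller families and single miRNAs among the most abundant. The miR-204 and miR-211 pair and the miR-27 pair each differ at 1 base (edit distance of 1), and these pairs are shown because reads of one can be taken for the other.
miR-204-5p: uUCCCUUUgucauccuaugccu
miR-211-5p: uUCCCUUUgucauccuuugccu
miR-27b-3p: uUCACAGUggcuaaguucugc
miR-27a-3p: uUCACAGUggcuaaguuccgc
miR-99b-5p: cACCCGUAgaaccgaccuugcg
miR-100-5p: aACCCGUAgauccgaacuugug
miR-146b-5p: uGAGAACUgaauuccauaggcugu
miR-191a-5p: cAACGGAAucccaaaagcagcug
miR-9a-5p: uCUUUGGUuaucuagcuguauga
miR-127-3p: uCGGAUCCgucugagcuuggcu
miR-22-3p: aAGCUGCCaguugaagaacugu
miR-338-3p: uCCAGCAUcagugauuuuguuga

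Library totals were 3018637 counts in rat 9, 2243413 in rat 10, 4917928 in rat 19 and 4465882 in rat 20, a 2.19-fold range. A miRNA at 0 could have up to 3 counts by counting error alone, which was 1.34 CPM in rat 10 and 0.610 CPM in rat 19. Of the 371 miRNAs outside the set, 177 were listed at 0 in all 4 libraries and 60 reached 10 counts in at least 1 library. Just inside the threshold stood miR-135a-3p, miR-1193-3p and miR-181b-2-3p, each with a lowest count of 10. Just outside stood miR-412-3p and miR-190a-3p with a lowest count of 9 and miR-20a-5p with 8.92. Each rat gave 1 library, so differences between rats are given as values without a test, and an exact two-sided sign-flip test over 4 rats could not give a p under 0.12 for the order of 2 miRNAs and was not run. The sequencing set of each library was not given, so sets could not be compared. CPM is a share of a library, so a rise in 1 abundant miRNA lowers the CPM of the others, and ligation favours some ends, so that ranks are ranks of reads and not of molecules. In a whole-tissue sample, fewer cells of a type and less RNA per cell cannot be told apart.

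A few miRNAs held most of the counts. The single most abundant miRNA held 12.7% ± 1.79 (SD, n = 4) of the counts, the top 10 held 57.8% ± 1.27 and the top 100 held 97.0% ± 0.111. A share of 50% of the counts was reached with 8 miRNAs in rats 9, 10 and 20 and with 7 in rat 19. To reach 90%, between 49 and 52 miRNAs were needed. Levels ran from 127074 CPM down to 4.47 CPM, with a median of 84.0 CPM. Only 18 of the 382 miRNAs had a mean of 10000 CPM or more, and they held 72.7% of the counts. A further 63 lay between 1000 and 10000 CPM with 22.9% of the counts, and 104 lay between 100 and 1000 CPM with 3.81%. The 161 miRNAs between 10 and 100 CPM held 0.614%, and the 36 under 10 CPM held 0.0242%. Rarely read miRNAs thus made up most of the names and almost none of the reads.

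miR-181a-5p, which is known to act in neurons and immune cells, ranked first in every rat, at 137953 CPM in rat 9, 116712 in rat 10, 145952 in rat 19 and 107680 in rat 20. Its share of 13.8% in rat 9 had a Wilson 95% interval of 13.76 to 13.83, so the differences between rats were far wider than counting error. miR-30a-5p followed at 91519, 94578, 96709 and 101913 CPM in rats 9, 10, 19 and 20, and did not overlap with miR-181a-5p. The rank 3 and 4 places went to the relatives miR-26a-5p (79679 CPM ± 1497) and miR-26b-5p (76346 CPM ± 1315). miR-26a-5p was the higher in all 4 rats although their ranges overlapped. How reads were divided between these relatives is not given, so their order is uncertain. Below them there was a gap, since miR-26b-5p was 1.82 times as high as miR-143-3p (41836 CPM ± 3778), a miRNA of smooth muscle and pericytes.

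**Figure D1:**
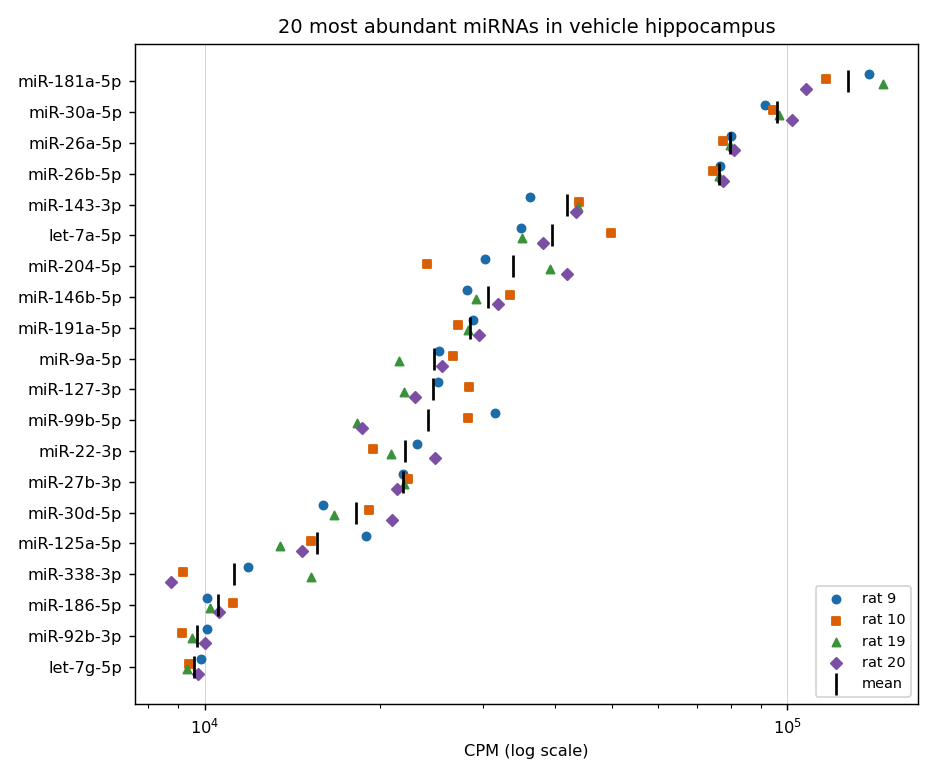
CPM (log scale) of the 20 most abundant miRNAs in each of the 4 vehicle rats, with 1 marker shape per rat and a black bar at the mean. miR-181a-5p and miR-30a-5p stand apart from the rest in every rat, while miR-204-5p, miR-99b-5p and miR-338-3p spread widely between rats.

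From the fifth place on, neighbours were mostly not separable. Of the 19 pairs of neighbours among the top 20, only 5 had ranges that did not overlap, and 13 changed order in at least 1 rat. let-7a-5p, of the family that restrains growth and pluripotency genes, was at 34879 CPM in rat 9, 49821 in rat 10, 35111 in rat 19 and 38068 in rat 20. miR-204-5p, the miRNA of the choroid plexus epithelium, was at 30287, 24026, 39096 and 41947 CPM. Rat 10 was thus the highest for let-7a-5p and the lowest for miR-204-5p, and these neighbours swapped places between rats. miR-9a-5p, a miRNA of neural progenitors and neurons, and miR-127-3p, an imprinted miRNA, differed by a factor of 1.01 in their means. In the ranks of the single rats, 8 miRNAs were in the top 10 of every rat and 17 were in the top 20 of every rat.

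Pairs of rats differed by a median of 1.12-fold to 1.22-fold over the 382 miRNAs, and between 4.79% and 8.03% of counts would have to move to make a pair alike. By the number of 2-fold differences, rat 10 stood somewhat apart, and its library was the smallest. Pairs with rat 10 had 17, 27 and 30 miRNAs that differed by more than 2-fold, and the pairs without it had 5, 7 and 8. The share of counts to be moved separated it less. That share was 6.42%, 8.03% and 6.65% for rat 10 with rats 9, 19 and 20, and between 4.79% and 6.59% in pairs without rat 10.

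Sequences were found for 356 of the 382 miRNAs, and their seeds formed 292 families, of which 38 had at least 2 members. miRNAs without a sequence entry include miR-30d-5p, miR-151-3p, miR-99a-5p and miR-124-3p, and the family shares below leave them out. The 10 largest families held 67.7% ± 1.07 (SD, n = 4) of all counts, and the 4 largest held 47.4% ± 1.19. The miR-26 family led with 15.6% ± 0.281, and its share was nearly the same in each rat, at 15.7%, 15.2%, 15.6% and 15.9% in rats 9, 10, 19 and 20. The miR-181 family came close, at 15.5%, 13.3%, 16.4% and 12.3%, and in rat 19 it exceeded the miR-26 family. The order of the first and second families was therefore not fixed across rats. The miR-30 family without miR-30d-5p (10.6% ± 0.480) and let-7 with miR-98 (6.74% ± 0.820) came next. By name miR-30d-5p is also a miR-30, and at 18187 CPM ± 2322 it was the second most abundant of them after miR-30a-5p. Family ranks are those without it, and with it the miR-30 family could stand higher in single rats.

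**Figure D2:**
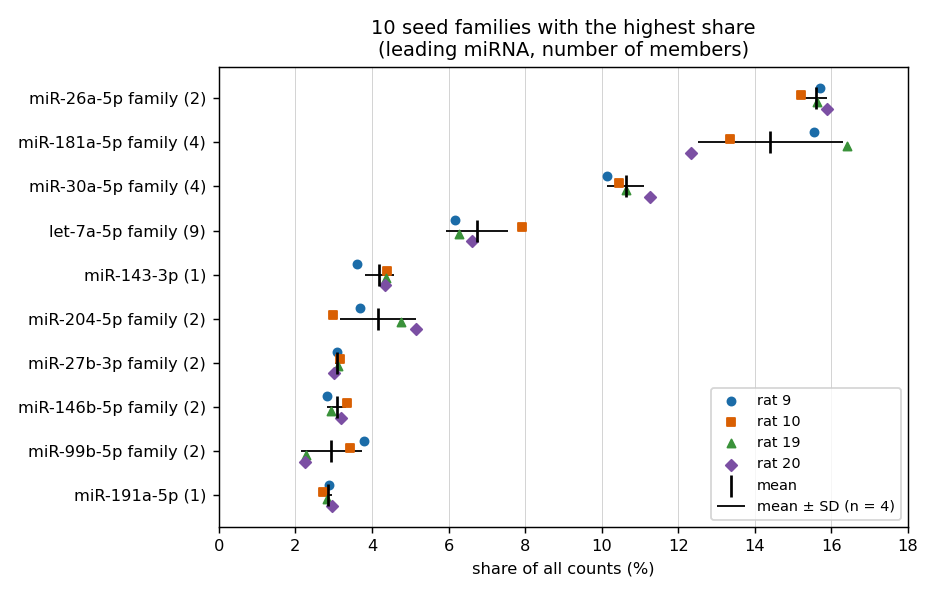
Share of all counts (%) of the 10 seed families with the highest share, named by the leading miRNA with the number of members in brackets. Markers are rats, and the black bar and line are the mean and SD (n = 4); miRNAs without a sequence, such as miR-30d-5p and miR-99a-5p, are left out. The miR-26 and miR-27 families vary little, and the miR-181, miR-204 and miR-99b families vary most.

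Several of the largest families were carried by 1 member, but not all. The miR-26 family was nearly evenly split, with miR-26a-5p at 51.1%, and miR-27b-3p made up 70.9% of its family. miR-181a-5p made up 88.1% ± 0.864 of its family, with miR-181c-5p at 5.75%, miR-181b-5p at 5.65% and miR-181d-5p at 0.480%. Of the miR-30 members with a sequence, which leaves out miR-30d-5p, miR-30a-5p made up 90.5% ± 0.243, and miR-30c-5p (5.49%) ranked before miR-30e-5p (2.67%) and the brain miRNA miR-384-5p (1.32%). The let-7 family was more evenly divided, with let-7a-5p at 58.3% ± 3.11, let-7g-5p at 14.4%, let-7i-5p at 12.2% and let-7c-5p at 6.95%. let-7a-5p took 62.8% of the let-7 counts in rat 10, where let-7c-5p took 5.13%, against at least 7.45% in the other 3 rats. miR-146b-5p outweighed miR-146a-5p, its relative known from inflammation, at 99.8% of their sum.

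Some near-identical members kept almost fixed proportions and others did not. Of 17 pairs at an edit distance of 1 among miRNAs with a sequence, 9 had a proportion that ranged over less than 3 percentage points between rats. miR-26a-5p and miR-26b-5p, printed above, differ by an edit distance of 2, and miR-26a-5p took 51.08%, 51.00%, 51.09% and 51.09% of their sum in rats 9, 10, 19 and 20. The proportion varied by 0.0920 percentage points across the 4 rats. miR-27b-3p took between 70.4% and 71.1% of its sum with miR-27a-3p, and miR-204-5p between 80.4% and 82.4% of its sum with miR-211-5p. The widest range at this distance was that of miR-135a-5p, at 63.2%, 73.4%, 82.1% and 81.7% of its sum with miR-135b-5p. let-7a-1-3p and let-7c-2-3p have the same sequence and were each listed at 50% of their sum. Over the 356 miRNAs with a sequence, 68 pairs lay within an edit distance of 3 and involved 78 miRNAs, which held 65.5% of the counts. miRNAs without a sequence entry, such as miR-30d-5p and miR-99a-5p, were not compared, so near-identical pairs can be missing. Of these 78, 70 had fractional counts in at least 1 library. How the counting divided reads between such relatives is not given in the sources used here, so the split within a pair is uncertain while its sum is less so.

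Both arms were listed under the same hairpin name, with enough counts, for 201 hairpins, which held 76.7% ± 1.41 of all counts. The 5p arm was dominant in 97 of them and the 3p arm in 104. Arms with unlike names, such as miR-181a-5p and miR-181a-1-3p, were not paired, so the most abundant miRNA is not included. By counts the 5p arms led, with 70.8% ± 0.625 (SD, n = 4) of the counts of these hairpins. Dominance was strong, with a median of 97.7% of a hairpin's counts on its dominant arm. In 69 hairpins the dominant arm held over 99%, and in 23 it held under 75%. The leading hairpins among these were 1-sided. miR-30a had 97.3% ± 0.118 on the 5p arm and miR-26a and miR-26b had nearly all counts there, while miR-143 (0.0190%), miR-127 (0.930%) and miR-22 (0.120%) had almost none.

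The hairpins below show this range, from RefSeq (GRCr8), with the 5p and then the 3p arm in capitals. miR-26b has 1 dominant arm, and miR-339 and miR-325 are close to an even split.
miR-26b hairpin: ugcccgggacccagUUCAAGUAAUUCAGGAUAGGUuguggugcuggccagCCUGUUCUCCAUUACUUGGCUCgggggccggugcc
miR-339 hairpin: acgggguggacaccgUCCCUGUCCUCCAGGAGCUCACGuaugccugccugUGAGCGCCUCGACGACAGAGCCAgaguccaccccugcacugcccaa
miR-325 hairpin: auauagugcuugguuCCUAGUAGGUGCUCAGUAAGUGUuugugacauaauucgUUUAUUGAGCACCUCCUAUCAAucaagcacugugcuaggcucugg

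In 199 of the 201 hairpins the same arm was dominant in all 4 rats. miR-339 was 1 of the 2 exceptions, with a 5p share of 49.3% in rat 9, 54.3% in rat 10, 47.3% in rat 19 and 46.4% in rat 20, and with a summed level of 47.2 CPM. The other was miR-362, at 58.3%, 45.5%, 34.8% and 36.8% of a summed level of only 5.52 CPM. Both crossed the even line in 1 rat, and miR-362 rests on few counts.

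Among hairpins of at least 50 CPM, miR-212, which responds to neuronal activity, was the nearest to an even split, at 44.1%, 47.1%, 39.6% and 40.8% on its 5p arm. miR-325 had 40.5%, 48.8%, 40.4% and 41.3%. In rat 10 the 5p share was the highest of the 4 rats for both. The other hairpins among the 10 nearest to an even split were miR-674, miR-485, miR-423, miR-324, miR-455, miR-540, miR-539 and miR-337, with mean 5p shares between 34.4% and 67.5%.

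**Figure D3:**
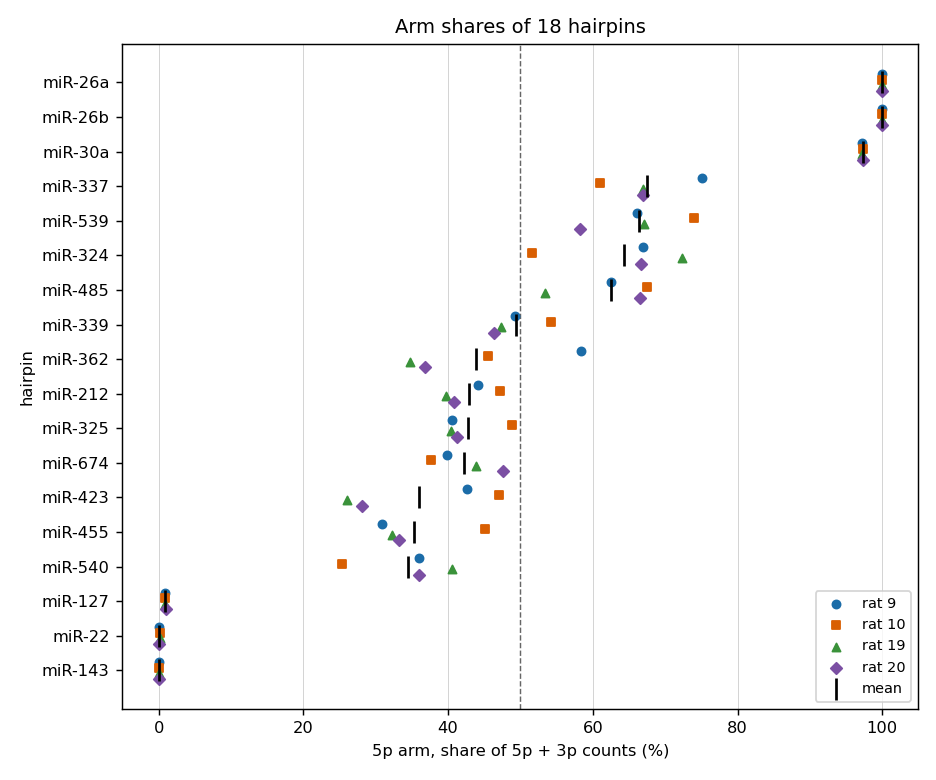
Share of the 5p arm (%) in the sum of both arms of 18 hairpins in each of the 4 vehicle rats, with the mean as a black bar and a dashed line at 50%. The 6 leading hairpins sit at the ends, the other 12 sit near the middle, and only miR-339 and miR-362 have rats on both sides of the line.

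miR-423 moved on 1 arm only. miR-423-5p was at 103 CPM in rat 9, 140 in rat 10, 56.7 in rat 19 and 58.2 in rat 20, while miR-423-3p stayed at 151 CPM ± 10.2. The 5p share was therefore 42.7% and 47.0% in rats 9 and 10 and 26.0% and 28.2% in rats 19 and 20. miR-409a, of the imprinted cluster, had the same layout. miR-409a-5p was at 289, 332, 92.9 and 105 CPM, and miR-409a-3p stayed at 520 CPM ± 44.3. In both hairpins the 5p arm was higher in rats 9 and 10 than in rats 19 and 20, and the 3p arm was not. How many of all miRNAs divide the rats in this way was not counted. Rats 9 and 10 also had smaller library totals than rats 19 and 20. The arms of miR-409a are shown for reference.
miR-409a-5p: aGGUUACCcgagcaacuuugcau
miR-409a-3p: aAUGUUGCucggugaacccc

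Across the 356 miRNAs with a sequence, the first base differed between names and counts. miRNAs starting with U were 39.9% of the names and held 68.1% ± 1.82 of their counts, and those starting with G were 9.27% of the names and held 0.247% of the counts. Those with A (28.4% of names) held 22.5% ± 1.65 and those with C (22.5% of names) held 9.10% ± 0.669. The A share rests largely on miR-181a-5p, since without this miRNA the U share was 78.6%. Mature lengths ran from 20 to 25 nt, and 22 nt was the most frequent, with 183 miRNAs. Libraries were cut from a gel at 20 to 30 nt.

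The first base also differed between the arms of a hairpin. Among 176 hairpins with a sequence for both arms, 90 dominant arms and 30 minor arms started with U. Where only the 5p arm started with U, it was dominant in 40 of 47 hairpins, and where only the 3p arm did, the 3p arm was dominant in 33 of 39. Where neither or both started with U, the sides were nearly even, at 35 and 38 and at 9 and 8 hairpins for 5p and 3p. miR-26b and miR-339, printed above, show both cases, with a U on the 5p arm only in the first and on both arms in the second. These counts describe hairpins of 1 tissue, and relatives among them share sequence.

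Spread between rats was mostly modest. The SD was 14.0% of the mean for the median miRNA, with quartiles of 8.74% and 22.7%. It was under 10% for 121 miRNAs and over 50% for 9. The spread was larger than counting error alone would give for 335 of 382 miRNAs, and 226 exceeded it by a factor of 2. In miRNAs of 10000 CPM or more the median was 9.93% against a counting error of 0.336%, and under 10 CPM it was 26.9% against 21.9%. The gap between the spread and the counting error was thus wider, as a ratio, in the abundant miRNAs. The median biological coefficient of variation from edgeR was 13.9% in the first class and 17.5% in the second, without a steady rise over the classes between. In the first class it was above the observed spread of 9.93%. It therefore cannot be read as the spread that remains once counting error is removed. For miR-26b-5p it was 12.3%, against an observed spread of 1.72%. Between the highest and the lowest rat, 50 miRNAs differed by more than 2-fold and 87 by less than 1.2-fold. edgeR gave a common biological coefficient of variation of 19.8%, which was 14.5% without rat 10.

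**Figure D4:**
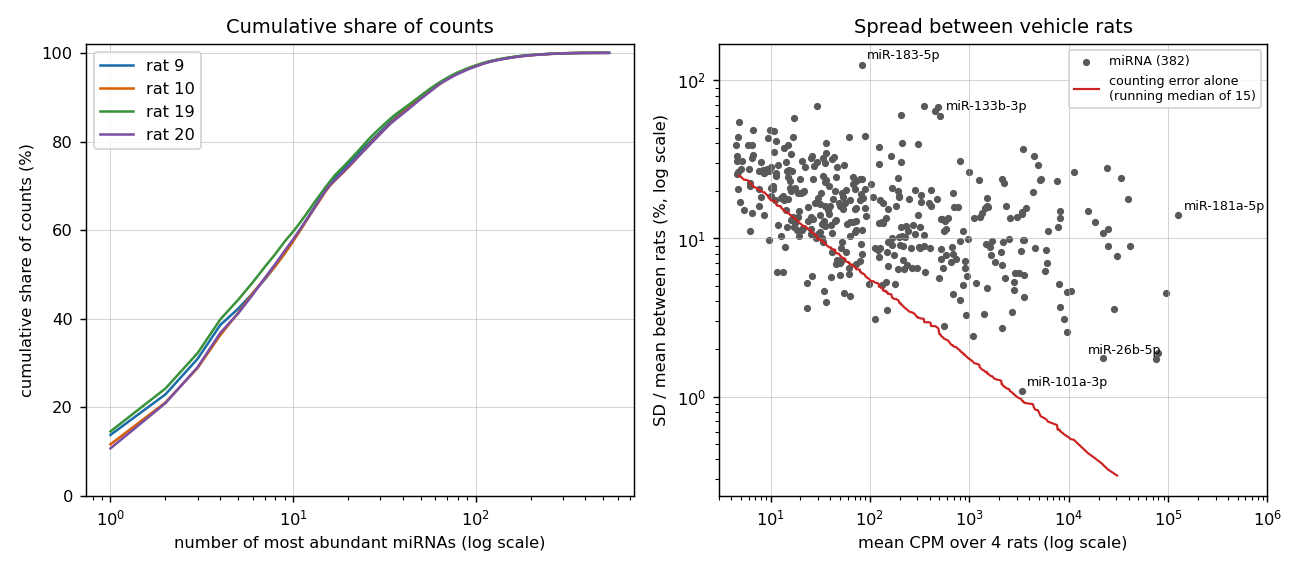
Left: cumulative share of counts (%) against the number of most abundant miRNAs (log scale), 1 line per rat. Right: SD divided by the mean between rats (%, log scale) against mean CPM (log scale) for the 382 miRNAs, with the running median of the spread from counting error alone in red. The 4 lines nearly coincide, and most points above 100 CPM lie over the red line.

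The steadiest of the miRNAs at or above 10 CPM was miR-101a-3p, at 3309, 3336, 3390 and 3373 CPM in rats 9, 10, 19 and 20, a spread of 1.08% against a counting error of 0.949%. miR-26b-5p (1.72%), miR-27b-3p (1.76%), miR-26a-5p (1.88%), miR-140-3p (2.41%) and let-7g-5p (2.56%) followed. The remaining 4 of the 10 steadiest were miR-351-5p, miR-301a-3p, miR-27a-3p and miR-325-5p, at 3.12% or less. The miR-26 pair and the miR-27 pair are near-identical in sequence, so the values within each pair are not independent.

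The miRNA of largest spread was miR-183-5p, a miRNA of sensory cells, at 43.4 CPM in rat 9, 25.0 in rat 10, 24.0 in rat 19 and 239 in rat 20. miR-182, from the same primary transcript, was at 441, 201, 351 and 961 CPM. Rat 20 was thus the highest for both, and miR-96-5p, the remaining miRNA of that transcript, was at 9.85 CPM there and at 2.32 CPM or less elsewhere, under the threshold of the set. Their sequences have related but unlike seeds.
miR-183-5p: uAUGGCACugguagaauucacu
miR-182: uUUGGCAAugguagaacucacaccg
miR-96-5p: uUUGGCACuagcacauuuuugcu

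The striated muscle miRNAs miR-1b, miR-133a-3p and miR-133b-3p were also among the 10 of largest spread, and the low rat was rat 10. miR-133b-3p was at 694 CPM in rat 9, 59.3 in rat 10, 585 in rat 19 and 699 in rat 20. miR-1b was at 540, 25.4, 305 and 512 CPM. miR-133a-3p was at 454, 45.5, 681 and 643 CPM. miR-133a-3p and miR-133b-3p lie at an edit distance of 1, so the split between them is uncertain. The other 3 rats lay far above rat 10 for each of these miRNAs, which are known from heart and skeletal muscle. Left without rat 10, the spread was 9.79% instead of 59.8% for miR-133b-3p, 28.4% instead of 68.8% for miR-1b and 20.5% instead of 63.8% for miR-133a-3p. Rat 10 was the highest for miR-484 (15.2, 58.8, 21.4 and 20.8 CPM) and for miR-10b-5p (6.02, 30.1, 14.6 and 18.2 CPM), both among the 10 of largest spread with miR-342-5p. miR-99b-5p, a miRNA of the let-7e and miR-125a cluster, was at 31468, 28312, 18260 and 18624 CPM, higher in rats 9 and 10 than in rats 19 and 20.

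Levels of miRNAs known from given cell types or tissues were summed by list. A listed miRNA need not be confined to 1 cell type, as with miR-9a-5p of neural progenitors and neurons, so the sums are not amounts of cells. The 12 neuronal members of the set summed to 41748 CPM in rat 9, 45358 in rat 10, 36617 in rat 19 and 42342 in rat 20. They were led by miR-9a-5p (24761 CPM ± 2206), miR-128-3p (7732 CPM ± 912) and miR-124-3p (3318 CPM ± 275), and the activity-induced miR-132-3p was at 798 CPM ± 32.6. miR-129-5p and miR-129-1-3p were listed at 0 in all rats, while miR-129-2-3p was at 477 CPM ± 84.7. The spread of the sum was 8.74%, and 8 of the 12 were lowest in rat 19, where 158 of all 382 miRNAs were lowest.

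The oligodendrocyte miRNAs, which act in myelin formation, summed to 13799, 10697, 17423 and 10041 CPM in rats 9, 10, 19 and 20. All 4 members gave the same order of rats, with rat 19 the highest and rat 20 the lowest. Of all 382 miRNAs, 52 were highest in rat 19 and 50 were lowest in rat 20. The miR-338 members are arms of the same hairpin, and the others are both named miR-219a. The 4 members are thus not separate observations. miR-338-3p alone gave most of the oligodendrocyte sum, at 11854, 9187, 15196 and 8733 CPM.

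The choroid plexus list, a tissue beside the hippocampus that secretes cerebrospinal fluid, summed to 37523, 30355, 48614 and 52611 CPM in rats 9, 10, 19 and 20. Its mean was 42276 CPM beside 41516 CPM for the neuronal list. The lists differ in the number and level of their miRNAs, so these means do not compare the amounts of the tissues. All 3 of its members in the set, miR-204-5p, miR-211-5p and miR-448-3p, followed the order rat 20, 19, 9 and 10. miR-448-3p was at 1066, 941, 753 and 485 CPM in that order. miR-204-5p and miR-211-5p lie at an edit distance of 1 and how their reads were divided is not given, so their orders are not independent. The ciliated cell list summed to 7539, 4568, 7460 and 9401 CPM in rats 9, 10, 19 and 20, led by miR-34c-5p (4893 CPM ± 1418). Rat 20 was the highest and rat 10 the lowest for all 5 of its members in the set. Of these, 4 are arms of the 2 neighbouring hairpins miR-34b and miR-34c, so they are not independent. Over all 382 miRNAs, 111 were highest in rat 20. By summed CPM, rat 10 was the lowest for the choroid plexus, ciliated cell, striated muscle, red blood cell and white blood cell lists. It was the highest for the neuronal and smooth muscle lists. The blood lists did not follow this by member. Of the red blood cell members, 1 was lowest in rat 10 and 2 in rat 9. Of the white blood cell members in the set, 2 were lowest in rat 10, 2 in rat 9 and 1 in rat 20, and their list sum ranged 1.07-fold. Over all 382 miRNAs, 153 were highest and 86 were lowest in rat 10. The part of these cells in the spread of other miRNAs was not tested.

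**Figure D5:**
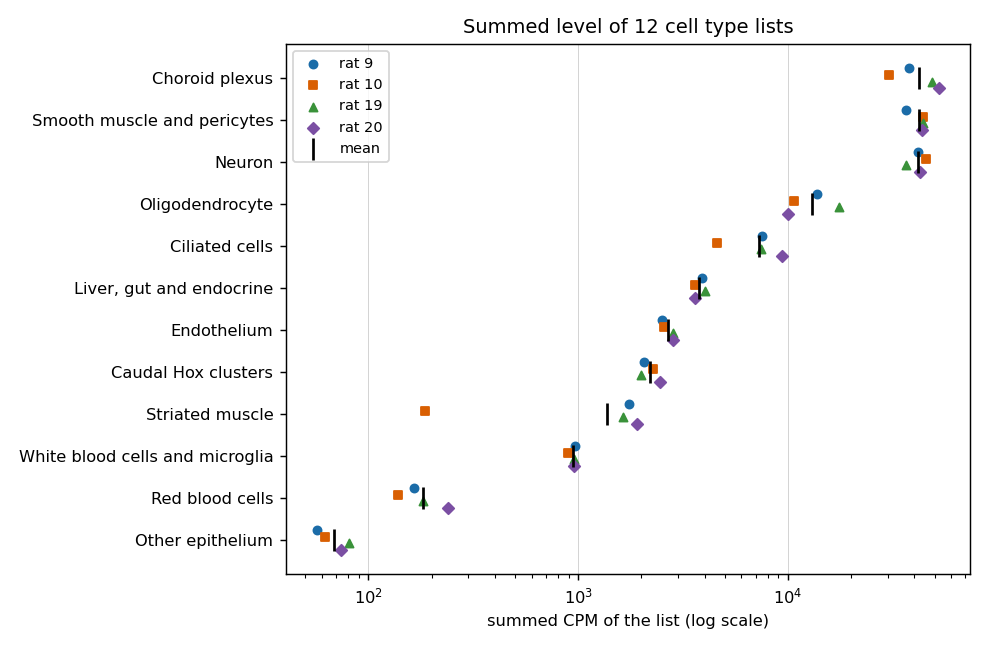
Summed CPM (log scale) of 12 lists of cell type miRNAs in each of the 4 vehicle rats, with the mean as a black bar. The choroid plexus, smooth muscle and neuronal lists are the highest, and rat 10 stands far below the others in the striated muscle list.

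The smooth muscle and pericyte list was almost all miR-143-3p and summed to 42057 CPM ± 3817, with rat 9 the lowest at 36341 CPM. The endothelial miR-126a arms summed to 2676 CPM ± 177. Red blood cell miRNAs summed to 182 CPM ± 43.2, with miR-451-5p at 123 CPM ± 36.4. White blood cell and microglial miRNAs summed to 943 CPM ± 29.9, and miR-155-5p was at 11.3 CPM ± 2.81. The striated muscle list summed to 1748, 186, 1628 and 1915 CPM in rats 9, 10, 19 and 20. Rat 10 was the lowest for all 4 of its members in the set, although miR-499-5p was nearly level at 55.3 CPM ± 2.51. Outside the set, miR-1-3p was the highest in rat 10, at 1.33, 2.01, 4.21e-07 and 1.12 CPM. How reads were divided between miR-1-3p and miR-1b is not given, so their split is uncertain. The heart miRNAs miR-208a-3p and miR-208b-3p were listed at 0 in all rats, and miR-206-3p was at 1.80 CPM ± 0.404.

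Lists of other tissues were low or rested on 1 miRNA. miR-200 family and other epithelial miRNAs summed to 68.6 CPM ± 10.9. The Hox cluster list was at 2195 CPM ± 211, of which miR-10a-5p gave 2177 CPM and miR-196a-5p and miR-196b-5p were at 0.136 CPM or less in every rat. The liver, gut and endocrine list was at 3773 CPM ± 218, of which miR-192-5p, also known from kidney and gut, gave 3556 CPM ± 210, and the liver miRNA miR-122-5p was at 0.758 CPM. No miRNA of the embryonic stem cell list was in the set, and 5 of its 6 were listed at 0 in all rats.

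Many abundant miRNAs have neighbours in the genome. With precursors on the same strand joined when under 10 kb apart in RefSeq (GRCr8), 22 clusters had at least 3 members of the set. miRNAs without a sequence entry are not counted in the clusters. Among these are miR-136-5p (872 CPM) and miR-127-5p (231 CPM), the other arms of hairpins in the miR-127 cluster. The miR-99b, let-7e and miR-125a cluster held 5.20%, 4.54%, 3.31% and 3.48% of the counts in rats 9, 10, 19 and 20. Its largest member was miR-99b-5p, whose values per rat are given above, so the cluster is not a separate case of higher values in rats 9 and 10. In it, miR-99b-5p was at 24166 CPM ± 6736, miR-125a-5p at 15566 CPM ± 2330 and let-7e-5p at 1508 CPM ± 243. The largest cluster by members was imprinted, with 42 members from 31 hairpins, among them miR-541-5p, miR-410-3p and miR-300-3p. It held 1.50% ± 0.159 of the counts, and its members ran from 3693 to 4.73 CPM. The neighbouring miR-127, miR-434 and miR-136 cluster had 14 members with a sequence entry, and these held 3.62% ± 0.396, most of it miR-127-3p (24630 CPM ± 2839). Members of 1 cluster thus spanned wide ranges of mature level. The members are single arms, so these ranges can include both arms of 1 hairpin and are not ranges between hairpins alone. In the set, 19 miRNAs matched several loci, so that 22.2% of the counts could not be placed at 1 locus.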

How the data were processed

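Small RNA from 1 µg of total RNA per rat was gel purified at 20 to 30 nt and sequenced for 37 cycles. The authors trimmed and assigned the reads and deposited 1 list per rat of 753 mature miRNAs, in which each value is an estimated count that was not scaled to library size. Partek, cutadapt and rn5 are named in the submitters' processing notes, and how shared reads were divided is not given in the sources used here. Fractional values were 128 to 149 per library and held between 81.2% and 87.8% of its counts.

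CPM used the total of each library and unrounded counts. Counts were rounded for edgeR 4.0.16 (R 4.3.3), which gave dispersions only. Tables were made with Python 3.11.15, pandas 2.3.3 and numpy 2.4.6, and edit distances with edlib 1.3.9.post1. Scripts were checked on simulated data. Sequences and neighbourhoods came from RefSeq (GRCr8), whose coordinates are not given because the builds differ. Arms were compared where both were listed under the same hairpin name and their sum was 10 counts or more in every library. The miRNAs, cell type lists and alternatives were chosen with earlier results of these data known.

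miRNAs named were the 20 most abundant, members of the 10 largest seed families, those of the cell type lists, the 10 of highest and 10 of lowest SD over mean at 10 CPM or more, the 10 hairpins nearest to an even split, the 3 leading hairpins on each arm, hairpins whose dominant arm changed, and 3 on each side of the threshold. miR-96-5p, miR-423-3p, miR-409a-3p, let-7a-1-3p, let-7c-2-3p, miR-135a-5p, miR-135b-5p and the clusters were chosen after their values were seen. Libraries of 8 ethanol rats were not used. Each library is a separate rat, so the spread is between animals. Alternatives covered the minimum count, scaling, seed length, arm minimum, rounding, down-sampling and each rat left out.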

Additional observations from a re-analysis of the deposited data

Results flagged for a closer look

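Values were set apart in 9 of 134 groups of 4 rats examined, because the gap between 1 rat and the nearest other rat took most of the range over all rats. Chance alone gives about 1 in 20, or 6.7 of 134, so the number is near that level. No cause was tested.

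Rat 9 was the low one for miR-143-3p (log2 CPM of 15.14, the others 15.41 to 15.42), for miR-145-5p (7.08, the others 7.66 to 7.77) and for the summed smooth muscle and pericyte list (15.15, the others 15.41 to 15.43). miR-143 and miR-145 are neighbours in the genome, so these values are not independent.

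Rat 10 was the low one for miR-133a-3p (5.51, the others 8.83 to 9.41), miR-133b-3p (5.89, the others 9.19 to 9.45), the summed striated muscle list (7.54, the others 10.67 to 10.90) and miR-155-5p (2.83, the others 3.58 to 3.72). It was the high one for the 5p share of miR-325 (48.8%, the others 40.4% to 41.3%) and of miR-455 (45.1%, the others 30.9% to 33.2%).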

How the results depend on the processing

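The number of miRNAs in the set was 382 under rounding, 369 after down-sampling to the smallest library, 477 with a minimum of 1 count, 286 with a minimum of 50, and 382 to 393 with a rat left out. The 5p share of the counts of paired hairpins (70.8%) depended on which hairpins were kept. It was 62.9% over 104 hairpins with 10 counts on each arm and 58.7% over 97 hairpins without fractional counts. The share of counts on miRNAs starting with U was 78.6% without miR-181a-5p, and 39.9% when each miRNA counted once. There were 581 seed families when all listed miRNAs were used. The median spread between rats was 13.0% under TMM, 12.8% under relative log expression and 13.6% under upper-quartile scaling, 21.0% over every miRNA with a count above 0, and between 11.5% and 14.6% with a rat left out, the lowest without rat 10. The mean CPM of 92 named miRNAs moved by less than 1 SD between rats under TMM, rounding and each rat left out, and for a mean of 4 values the last holds by construction. With hairpins joined up to 50 kb instead of 10 kb, a gap chosen after seeing the data, there were 23 clusters instead of 22. No paired analysis was possible because only 1 group is described. Counting error was largest under 10 CPM.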
